A study of Homo sapiens with 5 samples.

Results

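Serum response factor (SRF) and 5 cofactor genes were followed in HCT116 cells, a human colorectal carcinoma line, after knockdown of one of them, ELK4. The set comprised the ternary complex factors (TCFs) ELK1, ELK3 and ELK4, SRF itself, and the myocardin-related transcription factors MKL1 and MKL2, now named MRTFA and MRTFB. These 6 genes were found by symbol among 20026 genes, and all 6 passed the minimum of 1 FPKM (a fragment density scaled to transcript length and to the mapped reads of a sample) in at least 2 samples. All cells had received lentivirus and puromycin selection. The control cells carried the pLKO.1 vector (pLKO_1 and pLKO_2), and the knockdown samples (shELK4_1, shELK4_2 and shELK4_3) came from cells made with 3 independent hairpins against ELK4. The samples bear the same names as the hairpins in the study's list, and each is read here as 1 hairpin on that basis alone, since the labels do not state which hairpin a sample carried. With 1 sample for each, a hairpin and its sample cannot be told apart, and the 3 samples served as replicates of the knockdown. Whether the samples came from separate cultures is not given in the labels, so the p-values measure the spread between these samples only. Loss of ELK4 and the presence of any hairpin in place of the vector alone cannot be told apart in this design. The comparison asked how abundant the 3 TCFs are relative to each other, and whether the hairpins left the paralogs and partners of ELK4 as they were.

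SRF is a MADS-box protein that binds CArG boxes as a dimer and is found in nearly all cell types. It has little activity alone and works with cofactors of either of these families. The TCFs are ETS proteins that bind a GGA core next to SRF and are phosphorylated by MAP kinases, which links SRF to growth factor signaling and the immediate early genes. The MRTFs are held in the cytoplasm by monomeric actin and enter the nucleus when actin assembles into filaments, which links SRF to cytoskeletal genes. ELK1 and ELK4 are mainly known as activators, and ELK3, also called Net, as a repressor that signaling can turn into an activator.

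The genes lie apart from each other in GRCh38 (GENCODE release 44). ELK1 is at chrX:47635521-47650604 on the minus strand, ELK3 at chr12:96194375-96269824 on the plus strand and ELK4 at chr1:205597556-205632011 on the minus strand. SRF is at chr6:43171269-43181506 on the plus strand, MKL1 at chr22:40410281-40636719 on the minus strand and MKL2 at chr16:14071319-14266773 on the plus strand. No pair of these genes shared a 50-base word in its annotated transcripts (0 shared words), so a fragment of that length matched no more than 1 of them. For ELK1, 0.669% of such words also occurred in genes elsewhere, its pseudogenes ELK2AP and ELK2BP foremost. The share was 0.643% for ELK4 and 0.702% for MKL2, and 0 for ELK3, SRF and MKL1. Exons of other genes covered 4.5% of the exonic bases of ELK3, 3.73% of those of ELK4, 6.07% of those of MKL1 and 0.796% of those of MKL2. Where the strand is not kept, reads in these stretches cannot be assigned with certainty.

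Promoter windows of RefSeq genes (GRCh38.p14, from 250 bases before to 50 bases after a start site) were searched on both strands for the consensus CArG box and for the ETS word CCGGAAGT, neither of which contains the other. All 6 genes matched at least 1 window. The sites are shown because they are the elements that SRF and ETS proteins recognize in genes whose levels are reported here, each in a stretch of 30 bases with the motif in capitals. One of the 2 SRF windows held 2 CArG boxes, starting 30 and 10 bases before the start site (chr6:43171229-43171258 and chr6:43171249-43171278, plus strand):
SRF distal CArG: ctggggctcaCCATATAAGGagcggcctcg
SRF proximal CArG: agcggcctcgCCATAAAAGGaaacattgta
Among immediate early genes, windows were looked up for FOS, EGR1, IER2, JUNB and MCL1 only. Of the 4 windows found, that of EGR1 alone held a match. It had 2 CArG boxes, starting 105 and 83 bases before the start site (chr5:138465364-138465393 and chr5:138465386-138465415, plus strand):
EGR1 distal CArG: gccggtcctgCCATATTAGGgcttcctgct
EGR1 proximal CArG: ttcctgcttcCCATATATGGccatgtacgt
The ELK4 window held the ETS word once, starting 22 bases before the start site (chr1:205632015-205632044, minus strand):
ELK4 ETS word: cagcccctcccCCGGAAGTgacgtgtagcg
Of 35116 such windows, 1.29% held a CArG box and 4.14% the ETS word. These are matches of letters and do not show binding. The other windows of the 6 genes held neither motif, and nor did those of FOS, IER2 and JUNB. MCL1 matched no window, and the remaining immediate early genes listed further below were not looked up. Sites outside the windows, such as those more than 250 bases before a start site, were not searched. A gene without a match here can therefore still have such a site.

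Relative depth could be read from genes with very low values, whose FPKM moves in steps of single fragments. By these steps the other samples had 0.895 to 0.95 times the depth of pLKO_1. The absolute depth is unknown, and no counting error is given. The FPKM values of a sample summed to between 309139 and 319870. Of the epithelial markers, EPCAM was at 118 to 166 FPKM in the 5 samples and KRT8 and KRT18 were higher still, whereas the villus marker VIL1 was at or near 0 in all. Of 7 markers of leukocytes, endothelium and fibroblasts, 6 stayed below the FPKM minimum, and the exception was COL1A1, at 3.1 to 4.21 FPKM. The SD of the log2 difference over 10780 tested genes was 0.117 between the controls and 0.269 to 0.313 between hairpins. Between a control and a hairpin it was 0.29 to 0.319, so the hairpins differed from each other about as much as from the controls.

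In control cells ELK3 was the most abundant TCF transcript and ELK4 the least. ELK3 had 27.8 and 28.0 FPKM in the controls, ELK1 18.7 and 18.9 FPKM, and ELK4 8.62 and 7.60 FPKM. The order ELK3, ELK1, ELK4 held in both controls, with gaps far wider than the spread between them. ELK3 was 3.22 and 3.69 times as abundant as ELK4, and 1.49 and 1.48 times as abundant as ELK1. ELK3 thus contributed 50.9% ± 0.662 (SD, n = 2) of the summed FPKM of the TCFs, ELK1 34.3% ± 0.557 and ELK4 14.8% ± 1.22. SRF had 16.0 and 16.8 FPKM, just below ELK1 in each control. The MRTF genes were the scarcest of the set, MKL1 with 3.43 and 3.4 FPKM and MKL2 with 2.75 and 2.71 FPKM. Among the tested genes, 18.5% had a higher control mean than ELK3, 51.4% a higher one than ELK4 and 81.8% a higher one than MKL2. FPKM values are per length of transcript, so they can be compared between genes, but the annotation that set these lengths is not given in the sources used here.

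**Figure D1:**
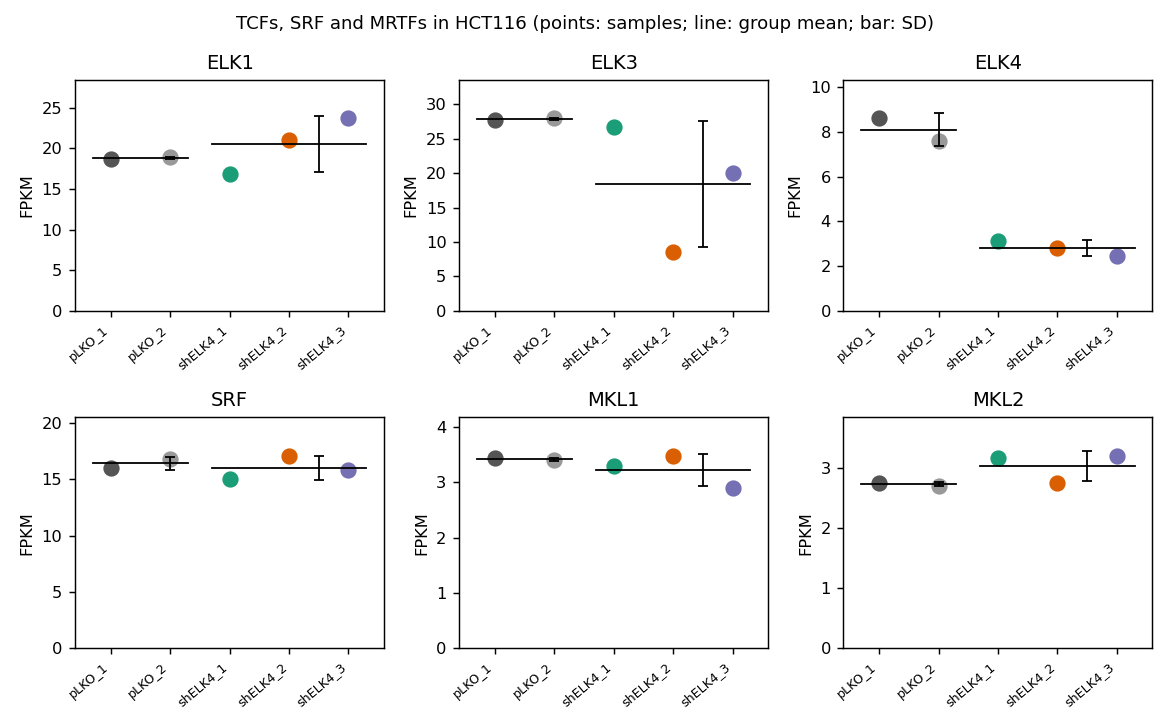
FPKM of the 3 TCFs, SRF and both MRTF genes in each of the 5 samples, with the group mean as a line and the SD as a bar, each axis starting at 0. ELK4 is lower in all 3 knockdown samples, ELK3 is at 8.57 FPKM in shELK4_2 alone, and SRF stays between 15.0 and 17.1 FPKM.

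ELK4, the targeted gene, fell in the knockdown and was low with every hairpin. It had 3.14 FPKM in shELK4_1, 2.82 in shELK4_2 and 2.44 in shELK4_3, which is 38.7%, 34.8% and 30.1% of the control mean. All 3 values lay well below both controls. On log2(FPKM + 1), limma gave a fold change of −1.26 with a standard error of 0.12, a 95% interval of −1.54 to −0.98 and an adjusted p of 0.029. ELK4 was the only one of the 6 genes called at an adjusted p under 0.05, while 0.167% of all tested genes were called, 0.0649% lower and 0.102% higher. Taken singly, its differences of −1.14, −1.25 and −1.40 exceeded 1 log2 unit with each hairpin, where 0.362%, 0.826% and 0.566% of tested genes were lower by that much with hairpins 1, 2 and 3. No gene of the set was higher by 1 log2 unit with any hairpin (0 of 6), which 0.566%, 0.343% and 0.232% of tested genes were. The call depended on single samples. Its adjusted p from limma was 0.483 without pLKO replicate 1, 0.342 without pLKO replicate 2, 0.0752 without shELK4 replicate 1 and 0.0779 without shELK4 replicate 3, with fold changes that stayed between −1.34 and −1.18. ELK4 was thereby brought to the level of both MRTF genes, whose values its own overlapped.

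ELK3 differed between the knockdown samples far more than any other gene of the set. It had 26.7 FPKM in shELK4_1, 8.57 FPKM in shELK4_2 and 20.1 FPKM in shELK4_3. The shELK4_1 value lay just under the controls, the shELK4_3 value was lower, and the shELK4_2 value was 30.7% of the control mean, slightly below the 34.8% of ELK4 itself in the same sample. On log2(FPKM + 1), the differences from the control mean were −0.06, −1.59 and −0.46, where the controls differed from each other by 0.01. Only 8 of the 10780 tested genes were further below the controls in shELK4_2. Beside ELK4, ELK3 was the only gene of the set to differ by 1 log2 unit or more with any hairpin. The hairpins spanned 1.53 log2 units for ELK3, against a median of 0.27 over all tested genes, and 0.223% of tested genes had a wider span. As a group, the knockdown samples gave a log2 fold change of −0.70 for ELK3 (standard error 0.41, 95% interval −1.68 to 0.28, adjusted p = 0.432 from limma), which did not pass the threshold. Without shELK4 replicate 2 it was −0.26 (adjusted p = 0.332 from limma). In ELK3 and ELK4, 2 of the 6 genes, the groups did not overlap, with every hairpin below both controls. The groups did not overlap in 40.1% of tested genes either, with 21.0% below and 19.1% above.

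Other genes were also low in shELK4_2 alone. Taking genes at least 1 log2 unit below the controls with 1 hairpin and within 0.5 with both others, a limit chosen after these values had been seen, 43 genes were low in shELK4_2 alone (0.399% of tested genes), ELK3 among them. The corresponding numbers were 8 genes for shELK4_1 (0.0742%) and 13 for shELK4_3 (0.121%). The 3 genes whose profile over the 5 samples was closest to that of ELK3 were YIPF6, which encodes a Golgi membrane protein, STAT3, the transcription factor downstream of interleukin-6 receptors, and B4GALT5, a galactosyltransferase. Their root mean square differences from ELK3, after subtraction of each gene's control mean, were 0.115, 0.135 and 0.14 log2 units. STAT3 had 16.9 and 16.4 FPKM in the controls, 16.4 in shELK4_1, 5.41 in shELK4_2 and 14.5 in shELK4_3. B4GALT5 had 75.7 and 74.0 FPKM in the controls, against 74.7, 24.5 and 67.3 FPKM with the hairpins. Both were near the control level with shELK4_1 and far below it with shELK4_2, as ELK3 was. They were chosen for this likeness, so it is not a separate result. Of the 5 epithelial markers tested, KRT18, KRT8, CDH1 and CDX2 were lowest in that sample and EPCAM in shELK4_3, at 118 FPKM against 137 FPKM in shELK4_2. KRT18 differed from the control mean by −0.68, −1.56 and −1.07 log2 units with hairpins 1, 2 and 3, KRT8 was at 792, 583 and 670 FPKM against 1070 FPKM in each control, and CDH1 stood at 23.1, 10.3 and 14.7 FPKM against 20.5 and 20.3 FPKM in the controls. Of the 6 epithelial markers, 5 were tested, and all 5 had a negative fold change, with a median of −0.40 and no adjusted call (0, with 3 at an unadjusted p under 0.05 from limma). Of all 10780 tested genes, 5585 were lower, and 16.2% were at an unadjusted p under 0.05 from limma in either direction. The part of these markers in the ELK3 result was not tested.

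**Figure D2:**
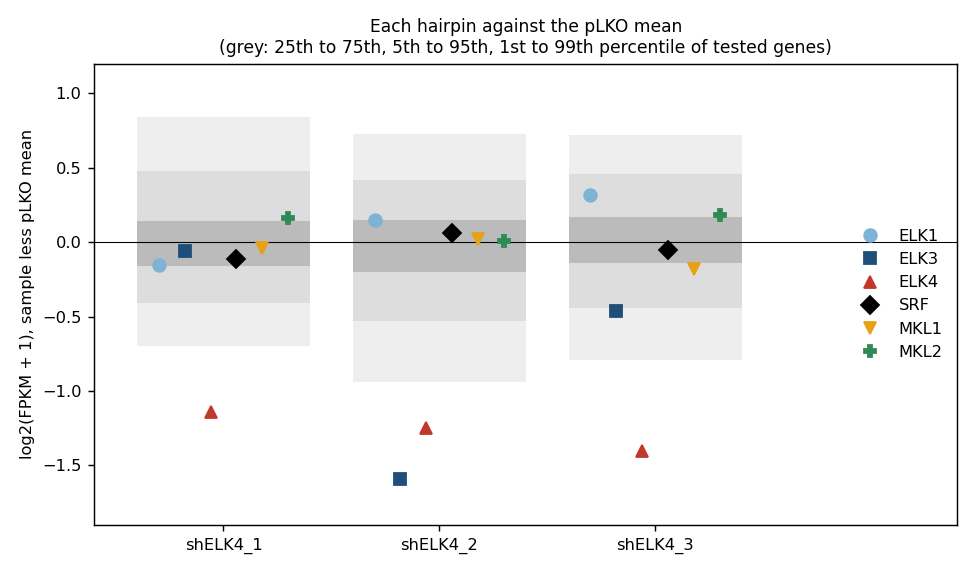
Difference of each knockdown sample from the control mean on log2(FPKM + 1) for the 6 genes, over grey bands that hold the middle of all 10780 tested genes (25th to 75th, 5th to 95th and 1st to 99th percentile). ELK4 lies below the widest band with each hairpin, and ELK3 does so with shELK4_2, at −1.59.

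ELK1, the first TCF to be described, did not pass the test and lay on both sides of the controls. It had 16.8 FPKM in shELK4_1, 21.0 FPKM in shELK4_2 and 23.7 FPKM in shELK4_3. The first value lay below both controls and the others above them, at 89.4%, 112% and 126% of the control mean, so the groups overlapped. From limma, the group difference was 0.11 on the log2 scale with a standard error of 0.14 and an adjusted p of 0.752. Its 95% interval, −0.24 to 0.45, corresponds to 0.845 to 1.37 times the control level of FPKM + 1. Without shELK4 replicate 3 the value was −0.00012. Among the 3 hairpins, ELK1 was lowest where ELK4 was highest and highest where ELK4 was lowest, but 3 samples are too few to relate the genes. The ELK1 difference in shELK4_3, 0.32, was exceeded in size by 21.5% of tested genes in that sample.

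SRF, the shared DNA-binding partner, showed little difference between the groups. It had 15.0, 17.1 and 15.8 FPKM with the 3 hairpins, around the control values, and limma gave −0.03 on the log2 scale with a standard error of 0.09 and an adjusted p of 0.891. The 95% interval, −0.26 to 0.19, corresponds to 0.835 to 1.14 times the control level of FPKM + 1. SRF was thus the gene of the set with the fold change nearest to 0, although its sign turned to 0.01 without shELK4 replicate 1. MKL1 had 3.29, 3.48 and 2.90 FPKM with the hairpins, overlapping the controls (log2 fold change −0.07, 95% interval −0.31 to 0.18, adjusted p = 0.779 from limma). MKL2 had 3.17, 2.75 and 3.21 FPKM. The shELK4_2 value fell between the controls and the others lay above them (log2 fold change 0.11, 95% interval −0.12 to 0.35, adjusted p = 0.604 from limma). MKL1 exceeded MKL2 in both controls, by 1.25 and 1.26 times, and in shELK4_3 the order was turned, at 0.901 times.

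**Figure D3:**
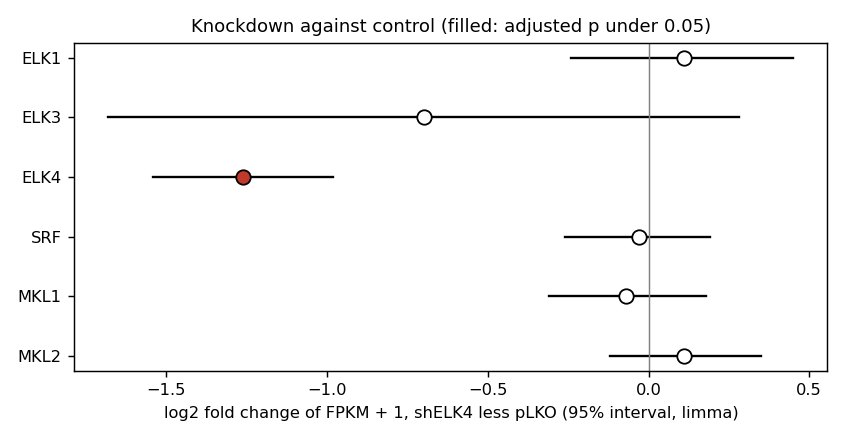
Log2 fold change of FPKM + 1, knockdown less control, for the 6 genes, with the 95% interval from limma as a line. The filled point, ELK4 at −1.26, is the one with an adjusted p under 0.05, and the interval of ELK3 is the widest, from −1.68 to 0.28.

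The balance between the TCF transcripts differed between the knockdown samples. The FPKM of the TCFs summed to 55.1 and 54.6 in the controls, 46.6 in shELK4_1, 32.4 in shELK4_2 and 46.2 in shELK4_3. Knockdown samples all had less, at 85.1%, 59.1% and 84.3% of the control mean. In shELK4_2 the sum was lower by 22.4 FPKM, of which ELK3 accounted for 19.3 FPKM and ELK4 for 5.29 FPKM, while ELK1 was above its control mean. ELK3 also had the larger part in shELK4_3, with 7.82 FPKM against 5.67 FPKM for ELK4, in a sum lower by 8.63 FPKM because ELK1 was again above its control mean. In shELK4_1 the larger part was ELK4 itself, with 4.97 of 8.19 FPKM. ELK4 made up 6.73%, 8.71% and 5.29% of the TCF sum with the 3 hairpins. ELK3 stayed the main TCF transcript in shELK4_1 (57.2%), whereas ELK1 took that place in shELK4_2 (64.8%) and shELK4_3 (51.2%). Per SRF transcript, the TCF sum was 3.45 and 3.25 in the controls and 3.10, 1.90 and 2.92 with the hairpins, while the MRTF sum per SRF stayed between 0.364 and 0.430 in all samples. The RNA values say nothing of protein levels. No p-value is given for these sums and shares, since ELK4 was lowered by design and the groups hold 2 and 3 samples.

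**Figure D4:**
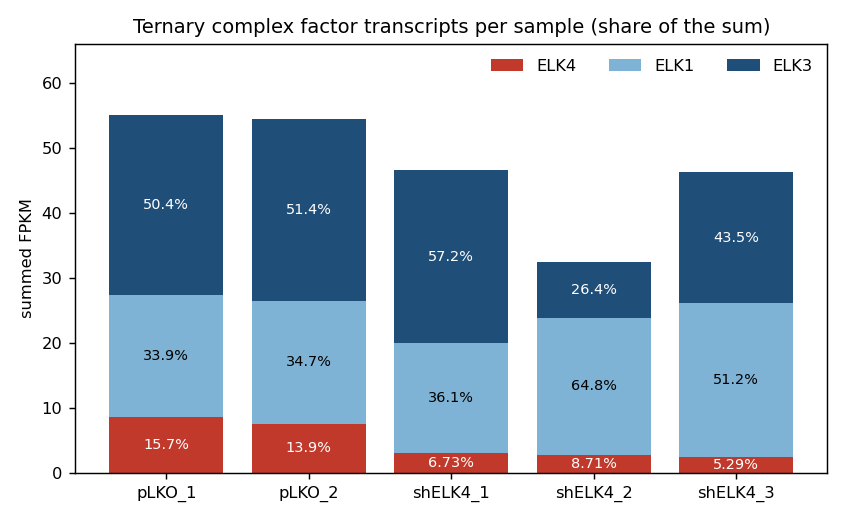
Summed FPKM of ELK4, ELK1 and ELK3 in each of the 5 samples, stacked from 0, with each gene's share of the sum printed in its bar. The sum is 55.1 and 54.6 in the controls and 32.4 in shELK4_2, where ELK3 holds 26.4% against 50.4% and 51.4% in the controls.

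The profile of ELK4 itself was most closely followed by CDKN1A, the cyclin-dependent kinase inhibitor p21, TNNC1, a troponin C, and LRG1, a secreted glycoprotein. Their root mean square differences from ELK4 over the 5 samples were 0.079, 0.139 and 0.15 log2 units, and these 3 were the only tested genes within 0.2. For ELK3, 9 genes were within that distance. CDKN1A stood at 365 and 372 FPKM in the controls, against 165, 145 and 147 FPKM with the hairpins. TNNC1 stood at 4.91 and 5.35 FPKM, against 2.2, 1.85 and 1.28 FPKM. LRG1 stood at 2.59 and 2.67 FPKM, against 0.797, 0.493 and 0.131 FPKM, and reached 1 FPKM in the controls only. All 3 were below the controls with every hairpin, as 21.0% of tested genes were. Since these 3 genes were chosen for their likeness to ELK4, this was given by the choice. The likeness was measured on log2(FPKM + 1), which understates the differences of low genes, and in FPKM alone LRG1 was lower relative to its controls than ELK4 was. No correlation is given, because 5 samples are too few.

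Genes acting around SRF were counted by role, beside all tested genes, of which 5195 were higher and 5585 lower in the knockdown, with a median log2 fold change of −0.01. A list of 19 genes held the MAP kinase cascade that phosphorylates the TCFs and the phosphatase subunits PPP3CA and PPP3CB. Of these 19, 18 were tested, 8 higher and 10 lower. None passed the threshold (0 of 18), and 4 were at an unadjusted p under 0.05 from limma, where all tested genes gave 16.2%. MAP2K7, a kinase that activates JNK, had 10.5 and 11.2 FPKM in the controls, against 15.8, 17.2 and 16.4 FPKM with the hairpins, without overlap (log2 fold change 0.56, adjusted p = 0.0756 from limma). PPP3CA, a catalytic subunit of calcineurin, the phosphatase that acts on ELK1, stood at 17.7 and 17.8 FPKM in the controls, against 31.4, 26.6 and 19.4 FPKM with the hairpins (log2 fold change 0.49, adjusted p = 0.276 from limma). All 11 TCF coregulators were tested, with 7 higher and 4 lower, a median of 0.03 and no call (0 at an adjusted and 0 at an unadjusted p under 0.05 from limma). HDAC2, the deacetylase recruited by sumoylated ELK1, had the largest value among them, 0.14 (adjusted p = 0.435 from limma), followed in size by CTBP2, a corepressor, with −0.08 (adjusted p = 0.817 from limma).

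Id proteins, helix-loop-helix inhibitors that can bind the ETS domain of TCFs and disrupt their complex with SRF, gave the only calls among the lists. ID1 had 75.9 and 73.8 FPKM in the controls, against 194, 153 and 150 FPKM with the hairpins, and ID3 had 38.6 and 37.9 FPKM and 83.4, 93.5 and 90.0 FPKM. Both rose, by 1.12 (adjusted p = 0.0465 from limma) and 1.19 (adjusted p = 0.0147 from limma) on the log2 scale, beside 0.102% of tested genes called higher. Every hairpin was above both controls in ID1 and ID3, as in 19.1% of tested genes. The list was chosen with earlier results of these data known, so the count of 2 of 3 tested is not independent evidence. Without pLKO replicate 1 or 2, or shELK4 replicate 1 or 3, neither passed (adjusted p = 0.0752 to 0.621 for ID1 and 0.0642 to 0.415 for ID3 from limma). ID2 was at 108 and 102 FPKM in the controls, against 78.0, 99 and 99.5 FPKM with the hairpins (log2 fold change −0.19, adjusted p = 0.488 from limma). It went the other way, with every hairpin below both controls, as in 21.0% of tested genes. ID4 stayed below the minimum.

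Of 6 other SRF partners, 4 were tested, with 1 higher, 3 lower and none called (0). At an unadjusted p under 0.05 from limma there was 1, where all tested genes gave 16.2%. Myocardin (MYOCD), the muscle-restricted relative of the MRTFs, was at most 0.00873 FPKM, and HOPX, an inhibitor of SRF in the heart, was listed at 0 in every sample. FHL2, a LIM protein that is both a target and a partner of SRF, had 38.0 and 36.0 FPKM in the controls, against 28.7, 21.5 and 22.9 FPKM with the hairpins (log2 fold change −0.59, adjusted p = 0.132 from limma). CSRP2, another LIM protein, had 22.1 and 21.9 FPKM in shELK4_1 and shELK4_3 but 12.1 FPKM in shELK4_2, level with the controls at 11.5 and 12.4 FPKM.

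Downstream, 13 immediate early genes tied to TCFs and 21 cytoskeletal and adhesion genes tied to MRTFs were listed. Of the former, 10 were tested, 4 higher and 6 lower, with a median of −0.09 and no adjusted call (0). At an unadjusted p under 0.05 from limma there was 1, where all tested genes gave 16.2%. EGR1, which carries the CArG boxes shown above, had 10.5 and 13.9 FPKM in the controls, against 19.8, 10.8 and 25.3 FPKM with the hairpins, so it was above both controls with hairpins 1 and 3 and between them with hairpin 2 (log2 fold change 0.51, adjusted p = 0.467 from limma). JUNB, an AP-1 subunit, had 59.3 and 61.5 FPKM in the controls, against 102, 70.3 and 70.4 FPKM with the hairpins (log2 fold change 0.39, adjusted p = 0.326 from limma). By hairpin, the median of the 10 genes was 0.09, −0.22 and 0.08. Of the MRTF list, 19 could be tested. Among them 2 were higher and 17 lower, the median was −0.21 and there was no adjusted call (0). At an unadjusted p under 0.05 from limma there were 4, all lower, beside 16.2% of all tested genes in either direction. The medians of the MRTF list by hairpin were −0.18, −0.16 and −0.15, where all tested genes had −0.01, −0.02 and 0.01. TPM2, a tropomyosin, had 85.1 and 87.7 FPKM in the controls, against 55.2, 54.6 and 52.2 FPKM with the hairpins (log2 fold change −0.67, adjusted p = 0.0527 from limma). MYL9, a myosin light chain, had 31.3 and 35.5 FPKM and 19.6, 21.1 and 21.6 FPKM (log2 fold change −0.66, adjusted p = 0.0729 from limma). In 8 of the 19 genes the groups did not overlap, 7 lower and 1 higher, beside 40.1% of all tested genes.

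**Figure D5:**
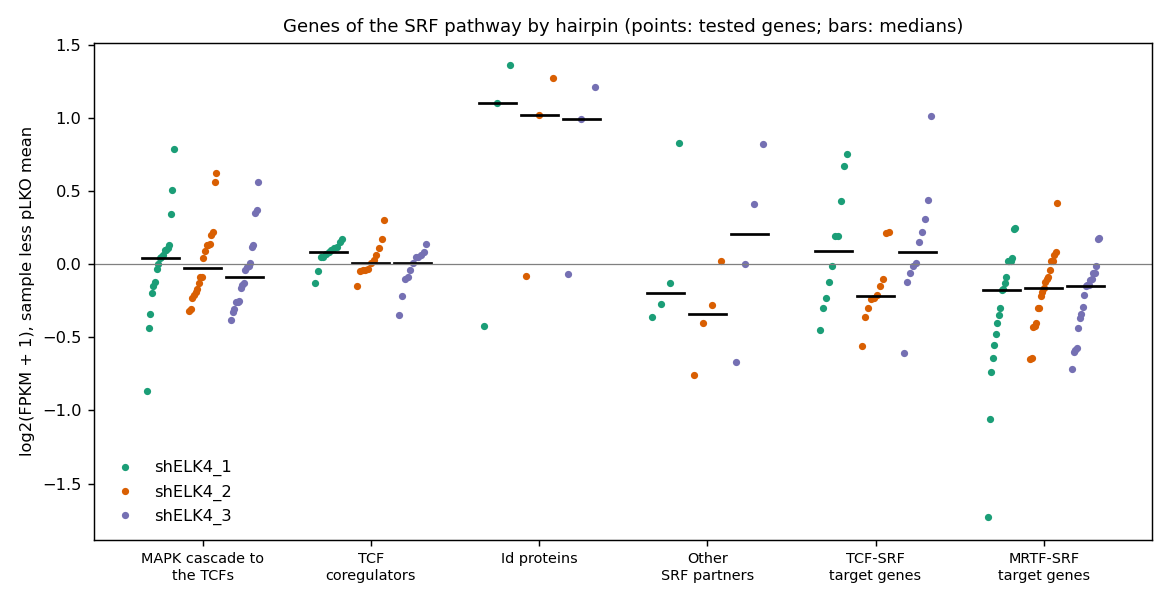
Difference of each knockdown sample from the control mean on log2(FPKM + 1) for the tested genes of 6 lists around SRF, with points for genes, colors for hairpins and bars for medians. The medians of the MRTF-SRF target genes lie between −0.18 and −0.15 with all 3 hairpins, whereas that of the TCF-SRF target genes is −0.22 in shELK4_2 and 0.09 and 0.08 with the other hairpins.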

How the data were processed

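HCT116 RNA was poly(A)-selected and sequenced on an Illumina HiSeq instrument by the authors, who deposited FPKM values per gene and sample, calculated with Cufflinks and normalized to the mapped reads of each sample. The submitters' processing notes name Trimmomatic 0.36, HISAT2 2.0.5, Cufflinks 2.2.1 and HTSeq 0.9.1. The genome build, the annotation and strand handling of the RNA-seq are not given in the sources used here. Of 20030 entries, 4 were dropped because 2 names occurred more than once. FPKM hold no counts, so the precision rests on the spread between samples.

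Groups were taken from the sample titles. The 10780 genes with at least 1 FPKM in at least 2 samples were fitted on log2(FPKM + 1), a scale that understates changes of low genes, with limma 3.58.1 in R 4.3.3 (trended empirical Bayes, group as the only term), and p-values were adjusted by Benjamini-Hochberg over all of them. The fit was also run on simulated data with the same spread in both groups. In the real data the hairpins differed from each other more than the controls did, so that run does not cover the unequal spread. Single hairpins, 1 to a sample by name, have no replicate and were given as differences from the control mean. Genes named beside the 6 were, per list, those with an adjusted p under 0.05 and the 2 with the largest fold change. The genes nearest ELK4 and ELK3 in profile, 3 for each, were named too. CDH1, CDX2, EPCAM, VIL1, MYOCD, HOPX and ID4 were named in addition, after their values had been seen. The 6 genes and the lists were chosen with earlier results of these data known. Alternatives were a pseudocount of 0.1, no FPKM minimum, median-of-ratios scaling, the replicate number as a block and each sample left out. Hairpin sequences were not used here, and 1 further gene list is not reported here. Python 3.11.15 and pandas 2.3.3 made the tables.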

Additional observations from a re-analysis of the deposited data

How the results depend on the processing

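ELK4 kept its direction in all 9 alternatives, from −1.51 to −1.18 on the log2 scale, and ELK3, MKL1 and MKL2 kept theirs. Without an FPKM minimum the ELK4 change was −1.26 with an adjusted p of 0.114 from limma, and more genes share the adjustment there. With each sample left out, it ranged from −1.34 to −1.18, and its adjusted p from 0.0365, without shELK4 replicate 2, to 0.483. For ELK3 the range was −1.02 to −0.26. ELK1 turned to −0.00012 without shELK4 replicate 3 and with the replicate number as a block, and SRF to 0.01 without shELK4 replicate 1. In the block fit shELK4_3 is the only sample with its number and does not enter the group difference. Both settings therefore gave the same fold changes and are not separate checks of them. With each sample left out, ELK1 ranged from −0.00012 to 0.23 and SRF from −0.08 to 0.01. The cause of these ranges was not tested. With a pseudocount of 0.1, the ELK4 differences of the hairpins were −1.34, −1.49 and −1.69, since a smaller pseudocount weighs less on low values, and 69 of the 72 recomputed hairpin differences moved by less than the residual SD of the gene. The mean ELK4 share of the TCF sum was 13.9% or 15.7% with 1 control left out. With 1 knockdown sample left out it ranged from 6.01% to 7.72%.

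The 18 genes called over all tested genes became 0 without an FPKM minimum (2270 at an unadjusted p under 0.05 from limma). With each sample left out the number ranged from 0 to 95. It was 0 without either control (581 and 571 at an unadjusted p under 0.05 from limma) or without shELK4 replicate 1 (1955), 1 without shELK4 replicate 3 and 95 without shELK4 replicate 2. With the replicate number as a block, 22 genes were called and ELK4 passed at −1.19 (adjusted p = 0.049 from limma). The samples share only a number: deviations of same-numbered samples correlated at 0.078 and 0.023. The block changed no call of the 6 genes. Where a control was left out, the lone control was assumed to vary like the other samples. List counts in the other fits were added after the data had been seen, and the MRTF list had 16 to 18 of 19 genes lower in all of them. Without shELK4 replicate 2, 1 gene of that list passed as lower and 1 other SRF partner as higher (adjusted p under 0.05 from limma). ID1 also missed the threshold with median-of-ratios scaling and a pseudocount of 0.1, where limma gave adjusted p-values of 0.0545 and 0.0549, and both ID1 and ID3 did so without an FPKM minimum (adjusted p = 0.145 and 0.0746 from limma).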
